A study of Mus musculus with 48 samples.

Results

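The 9 genes described here were the 5 subunits of the NF-kappaB transcription factors (Rela, Rel, Relb, Nfkb1 and Nfkb2), 3 inhibitors or feedback regulators (Nfkbia, Nfkbiz and Tnfaip3) and the protease of the CBM complex (Malt1). They were chosen by name from what the genes are known to do, and not by a measured value, but with earlier results of these data known. They are 9 of the 34932 genes that the transcript tables could be summed to. B16F10 melanoma, a mouse skin tumor line, was grown under the skin of WT mice and of Yap-cKO mice, in which a loxP-flanked Yap allele is deleted by Cre from the Cd4 promoter and a loxP-stop-loxP EYFP reporter is present, on a C57BL/6J background. Live CD4+ and CD8+ T cells, and CD45+ cells with neither marker (CD45+ CD4-CD8-), were sorted from the tumors, where they are called tumor-infiltrating lymphocytes (TILs), and from the tumor-draining inguinal lymph nodes (TDLNs). This gave 12 groups of 4 RNA sequencing libraries, 48 in all. The Cd4 promoter drives Cre in the cells that become CD4+ and CD8+ T cells, so the CD45+ CD4-CD8- cells, a mixture of all other leukocytes, were not themselves the targeted cells. Whether the WT mice carried Cre or the reporter, and whether libraries with the same number came from the same mouse, was not given in the sources used here.

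NF-kappaB factors are pairs of Rel-family proteins that are held in the cytoplasm of a resting cell by IkB proteins. Signals from antigen receptors, cytokine receptors and pattern receptors activate IkB kinases, the IkB protein is degraded and the factor enters the nucleus. In T and B cells the antigen receptor reaches these kinases through the CBM complex, which includes BCL10 and MALT1. Several genes of the pathway are themselves targets of NF-kappaB, among them the inhibitors Nfkbia and Tnfaip3, so that the pathway feeds back on itself. The same factors serve the activation and survival of T cells and the inflammatory programme of macrophages and other myeloid cells.

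The promoter sequences of 4 of the genes are given first because they carry the DNA word to which these factors bind. RefSeq windows running from 250 bases before to 50 bases from the annotated start (build GRCm38.p6) were found for 5 of the 9 genes, Nfkb2, Rel, Rela, Nfkbia and Tnfaip3. The kappaB consensus, 10 letters long, was searched on both strands, and matches are in capitals. Positions are counted from the start base as 0, with negative numbers upstream. Nfkb2 had matches at -39, -38 and -11 in the window chr19:46304487-46304786 on the plus strand, and the first 2 overlap. Rel had overlapping matches at -92 and -91 in chr11:23770920-23771219 on the minus strand. Nfkbia had a match at -29 in chr12:55492598-55492897 on the minus strand. Tnfaip3 had matches at -125 and -12 in chr10:19015361-19015660 on the minus strand.
Nfkb2: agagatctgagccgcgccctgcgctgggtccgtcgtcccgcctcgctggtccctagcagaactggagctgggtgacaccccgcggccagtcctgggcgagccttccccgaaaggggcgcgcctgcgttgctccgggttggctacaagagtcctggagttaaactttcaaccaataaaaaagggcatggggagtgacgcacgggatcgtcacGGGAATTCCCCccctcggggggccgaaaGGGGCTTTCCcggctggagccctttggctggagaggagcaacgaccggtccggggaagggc
Rel: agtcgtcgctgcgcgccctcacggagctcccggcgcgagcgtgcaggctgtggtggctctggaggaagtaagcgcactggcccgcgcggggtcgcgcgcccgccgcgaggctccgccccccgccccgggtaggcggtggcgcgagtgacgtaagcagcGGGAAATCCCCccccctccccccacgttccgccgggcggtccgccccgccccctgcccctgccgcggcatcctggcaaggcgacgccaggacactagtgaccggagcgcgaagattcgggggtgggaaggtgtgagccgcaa
Nfkbia: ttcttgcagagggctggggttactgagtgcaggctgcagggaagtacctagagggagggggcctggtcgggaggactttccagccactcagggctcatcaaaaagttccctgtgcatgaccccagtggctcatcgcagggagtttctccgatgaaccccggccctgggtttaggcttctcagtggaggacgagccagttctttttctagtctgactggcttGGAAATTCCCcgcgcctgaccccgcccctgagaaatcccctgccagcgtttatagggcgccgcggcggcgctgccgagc
Tnfaip3: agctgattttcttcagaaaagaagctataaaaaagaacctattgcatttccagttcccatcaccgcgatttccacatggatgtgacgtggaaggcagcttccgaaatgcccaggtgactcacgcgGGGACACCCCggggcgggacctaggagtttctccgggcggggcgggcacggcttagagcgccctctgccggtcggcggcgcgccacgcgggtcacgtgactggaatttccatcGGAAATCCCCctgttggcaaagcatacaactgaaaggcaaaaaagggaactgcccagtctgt
At least 1 match was present in 2779 of the 32851 RefSeq windows (8.46%). Counting a position once for each strand it matched, 286 of the windows (0.871%) held 3 or more matches. By that count the printed window of Nfkb2 held 4, and those of Rel and Tnfaip3 held 3 each. The single window of Rela and a second window of Tnfaip3, at another annotated start, held none of these letters, and the other 2 windows of Nfkb2 held 2 and 1 positions. A match describes the letters and shows neither binding nor regulation in these cells.

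In the annotation used here (GENCODE M21, GRCm38) Nfkb1 lies on chromosome 3 from 135584655 to 135691547, Nfkb2 and Rela on chromosome 19 from 46304320 to 46312385 and from 5637483 to 5648130, and Rel on chromosome 11 from 23736847 to 23770970. Relb lies on chromosome 7 from 19606217 to 19629438, Nfkbia on chromosome 12 from 55489410 to 55492647, Nfkbiz on chromosome 16 from 55811375 to 55838899 and Tnfaip3 on chromosome 10 from 19000910 to 19015657. Malt1 lies on chromosome 18 from 65430938 to 65479067. Rel and Rela were quantified from a single transcript each, so their values do not depend on how reads were shared among isoforms. Nfkb2-201 held on average 92.5% of the Nfkb2 transcript abundance over the 48 libraries and Nfkbiz-204 95.9% of that of Nfkbiz. Nfkbia was divided in every group into the coding Nfkbia-201 and a retained-intron transcript, Nfkbia-202, at group means of 39.1% to 44.1%. Nfkb1 was divided among 10 transcripts. Its main nonsense-mediated-decay transcript took group means of 26.5% to 30.7% in T cells of the tumor and 11.2% to 18.4% in T cells of the TDLNs. Tnfaip3-202, a second coding transcript of Tnfaip3, took 17.6% to 21.6% in T cells of the tumor and 4.78% to 15.3% in T cells of the TDLNs. Whether these shares reflect isoforms or the assignment of reads between overlapping transcripts was not tested.

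The libraries held 12656302 to 24213689 counts assigned to genes, at which 3 counts correspond to 0.124 to 0.237 CPM (counts scaled to library size), and all 9 genes passed the count filter in every comparison. Levels below are in CPM scaled by TMM over the 48 libraries, and errors of levels are SDs over the 4 libraries of a group. Cd4, Cd8a and Cd8b1 followed the labels of the sorts. Yap1, the deleted gene, was at 27.3, 21.5, 14.8 and 18.7 CPM in the WT libraries and 1.63, 2.85, 5.58 and 2.38 CPM in Yap-cKO CD4+ TILs (log2 fold change -2.58, edgeR adjusted p = 0.00974), and lower by 2.21 on the log2 scale in CD8+ TILs (adjusted p = 0.018), and in CD45+ CD4-CD8- cells of the tumor the estimate was -1.20 (adjusted p = 0.0773). In the TDLNs Yap1 was under 5 CPM in both genotypes, with estimates of 0.23 in CD4+ and -0.0062 in CD8+ cells. It therefore gave no check of the deletion in node T cells. In WT mice Yap1 was higher in the tumor than in the TDLNs, by 3.61 in CD4+ and 3.17 in CD8+ cells on the log2 scale. The part of RNA from other cells, whose markers follow, in the Yap1 values of the TILs was not tested. Those values are thus no clear check of the deletion in TILs. Melanoma markers (10 genes, summed) ran from 6737 to 20901 CPM in the WT libraries and 241 to 2938 CPM in Yap-cKO CD4+ TILs, from 4492 to 16290.0 and 80.9 to 3024 CPM in CD8+ TILs, and from 1349.6 to 2178 and 335 to 897 CPM in CD45+ CD4-CD8- cells of the tumor, so the groups did not overlap. T-lineage markers (15 genes, summed) went the other way, at 1880.2 to 7099.8 against 7475 to 11642 CPM in CD4+ TILs and 1968 to 5815 against 6441 to 7591 CPM in CD8+ TILs. Endothelial markers (10 genes, summed) were at 208 to 508 (WT) against 78.7 to 163 CPM (Yap-cKO) for CD4+ TILs and 168 to 1835 against 70.4 to 95.4 CPM for CD8+ TILs. Fibroblast and pericyte markers (10 genes) were at 46.7 to 848 against 5.66 to 13.2 CPM for CD8+ TILs, and they did not overlap between genotypes in CD4+ TILs either, with at most 577 and 56.1 CPM. Macrophage and monocyte markers (10 genes) overlapped between genotypes in CD4+ TILs, at 362 to 786 against 351 to 655 CPM, and were higher without overlap in Yap-cKO CD8+ TILs, at 324 to 673 against 827 to 2062 CPM. In these bulk libraries fewer cells of a type and less RNA per cell cannot be told apart. A library property that several members moved with is the GC index, the mean log2 deviation of the 20% of genes richest in GC minus that of the 20% poorest. It reached its highest value in the tumor, 2.22, in Yap-cKO CD4+ replicate 3. Ddx3y and Eif2s3y, both encoded on the Y chromosome, passed 5 CPM in 18 libraries, namely WT replicates 1 to 3 of each population and tissue, and in none of the other 30, so that sex and genotype were partly confounded.

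The inhibitor Nfkbia, which encodes IkB alpha, was the highest of the 9 genes in all 12 groups on a scale that corrects for length. Its mean level ran from 357 ± 137 TPM (transcript abundance corrected for length and depth, ± SD, n = 4) in WT CD8+ TILs to 1659 ± 688 TPM in Yap-cKO CD4+ TILs. Tnfaip3, which encodes the deubiquitinase A20, was second in all 8 T cell groups, at 113 ± 80.1 TPM in WT CD8+ TILs up to 608 ± 216 TPM in Yap-cKO CD4+ cells of the TDLNs. The TPM of Nfkbia include the retained-intron Nfkbia-202, at group means of 39.1% to 44.1%, and the order on coding transcripts alone was not tested. In CPM, which do not correct for length, Tnfaip3 was above Nfkbia in T cells of the TDLNs. Group means there were 1542 to 1677 against 639 to 732 CPM. Rel, the c-Rel subunit of activated lymphocytes, stood at the other end in T cells, with 4.99 ± 1.92 TPM in WT CD8+ TILs. In CD45+ CD4-CD8- cells of the TDLNs it reached 135 ± 54.0 TPM in Yap-cKO mice.

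When the 12 groups were put in order of mean CPM for each gene, groups next to each other overlapped in all 11 pairs for 8 genes and in 10 of 11 pairs for Nfkbiz. The order within a gene is therefore read between its ends. Tnfaip3 was highest in T cells of the TDLNs, from 1542 ± 276 to 1677 ± 485 CPM, and lowest in WT CD45+ CD4-CD8- cells of the tumor at 284 ± 47.5 CPM. Rel was highest in CD45+ CD4-CD8- cells of the TDLNs, with 580.2 ± 335 CPM in the WT group and 762 ± 263 CPM in Yap-cKO mice, and lowest in WT CD8+ TILs at 25.8 ± 9.57 CPM. Nfkbiz, an atypical IkB protein of the nucleus induced in myeloid cells, was highest in CD45+ CD4-CD8- cells of Yap-cKO tumors at 498 ± 31.8 CPM. The canonical subunit Rela had the smallest ratio of highest to lowest group mean of the 9 genes, from 101 ± 36.4 to 336 ± 122 CPM.

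**Figure D1:**
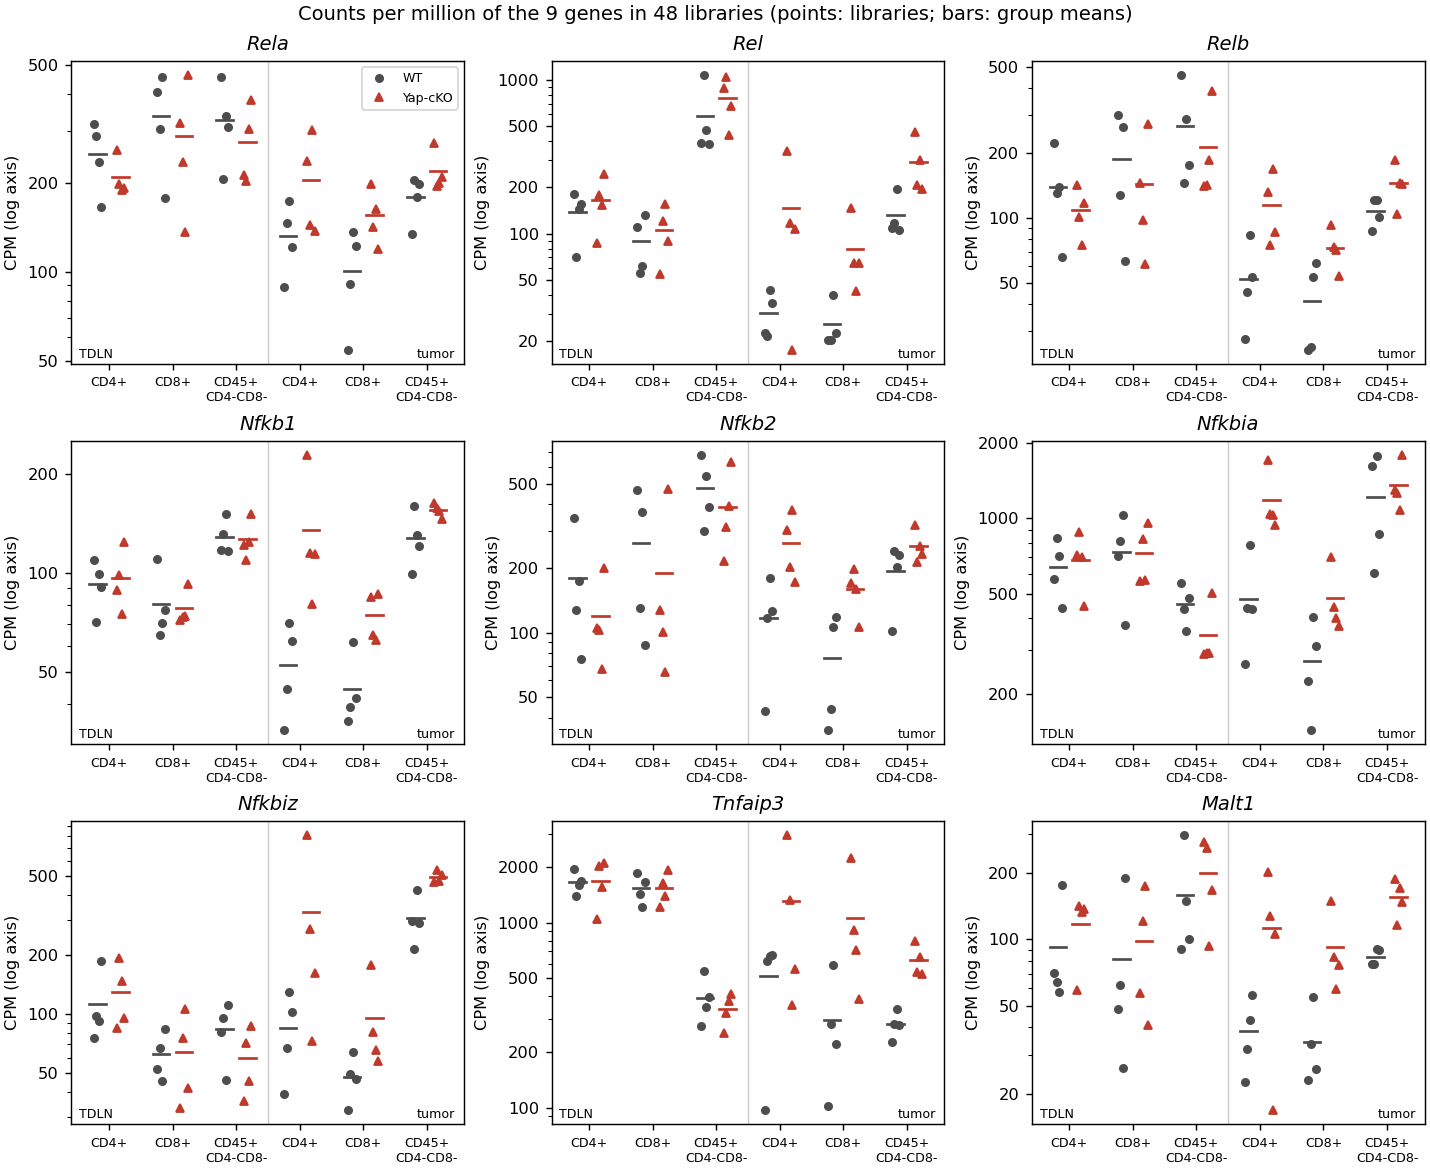
Level of each of the 9 genes in the 48 libraries in CPM on a log axis, with 1 panel per gene, libraries as points (gray circles WT, red triangles Yap-cKO), group means as bars, and TDLN groups left of the line and tumor groups right of it. The WT T cells of the tumor sit low in most panels, Tnfaip3 is highest in T cells of the TDLNs, and the highest group mean of Nfkbiz is that of CD45+ CD4-CD8- cells of Yap-cKO tumors, although its highest single library is Yap-cKO CD4+ TIL replicate 1.

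The main comparison of the design asks how loss of Yap in T cells changes their expression, and it was made by genotype in each population and tissue with edgeR's quasi-likelihood test. A gene was called at a Benjamini-Hochberg adjusted p under 0.05 over all tested genes and a fold change above 2 in either direction, which is 1 on the log2 scale. In CD4+ TILs 2 of the 9 genes were called higher in Yap-cKO mice, Nfkbia and Nfkb1, where 8.02% of all tested genes were called in either direction. The estimate was positive for all 9 genes, with a median of 1.42 on the log2 scale against 0.14 over all genes tested, and 7 of the 9 had an unadjusted p under 0.05. The libraries of the genotypes did not overlap for these 2 genes, a pattern that 17.1% of all genes showed.

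Nfkbia was at 263, 439, 781 and 435 CPM in the 4 WT libraries of CD4+ TILs and at 1697, 1038, 1035 and 944 CPM in the 4 Yap-cKO libraries. Every Yap-cKO library lay above every WT library, with Yap-cKO replicate 1 well above the other 3. The log2 fold change was 1.40 ± 0.38 (SE, adjusted p = 0.047), with a 95% interval of 0.56 to 2.25. Nfkb1, which encodes the p105 precursor of the p50 subunit, was at 33.2, 44.4, 70.7 and 62.0 CPM in the WT libraries and 229, 115, 80.5 and 115 CPM in Yap-cKO libraries. The groups were again apart, here by less than 10 CPM between the highest WT and the lowest Yap-cKO library. The log2 fold change of Nfkb1 was 1.45 ± 0.38 (SE, adjusted p = 0.0406), with an interval of 0.62 to 2.29.

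Rel had the largest estimate in CD4+ TILs and did not pass in the main fit. It was at 22.4, 21.7, 43.1 and 35.2 CPM in the WT libraries and 343, 118, 17.5 and 107 CPM in Yap-cKO libraries, so that 3 Yap-cKO libraries were above all WT libraries and replicate 3 was below them all. The log2 fold change of Rel was 2.34 ± 0.67 (SE, adjusted p = 0.0584). Malt1 had the same shape, with 22.6, 31.8, 43.4 and 56.2 CPM in the WT libraries and 202, 127, 16.9 and 106 CPM in Yap-cKO libraries (log2 fold change 1.64 ± 0.59 SE, adjusted p = 0.118). Nfkbiz, at 39.1, 67.4, 129.8 and 102 against 812, 269.5, 73.1 and 162 CPM, again had Yap-cKO replicate 3 inside the WT range (log2 fold change 2.03 ± 0.66 SE, adjusted p = 0.0852). Yap-cKO replicate 3 is the library with the GC index of 2.22, and Rel and Malt1 are the members poorest in GC. The part of the index in these values was not tested for a single library. Without that library 5 of the 9 genes were called, the 2 above and Rel, Nfkbiz and Malt1. With an offset for each library's trend over GC, added after seeing the data, the called genes were Nfkb1, Nfkb2, Rel, Relb and Nfkbia. In that edgeR fit Rel had 1.88 ± 0.53 (SE, adjusted p = 0.0392). Malt1 and Nfkbiz did not pass there (adjusted p = 0.0614 and 0.0546).

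The remaining subunits had smaller estimates and were not called in the main fit. Nfkb2, which encodes the p100 precursor of the alternative pathway, had a log2 fold change of 1.28 ± 0.44 (SE, adjusted p = 0.102), and Relb, its partner subunit, 1.25 ± 0.40 (SE, adjusted p = 0.0837). Rela had 0.75 ± 0.35 (SE, adjusted p = 0.215), with an interval of -0.020 to 1.52. Tnfaip3 was at 96.8, 619, 663 and 667 CPM in the WT libraries and 2983, 1325, 359.6 and 558 CPM in Yap-cKO libraries, and the spread within each genotype left its estimate of 1.42 ± 0.71 (SE) at an adjusted p of 0.239.

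In CD8+ TILs 2 of the 9 genes were called higher in Yap-cKO mice, Rel and Malt1, where 12.2% of all tested genes were called in either direction. The estimate was again positive for all 9, with a median of 1.01 against 0.08 over all genes, and all 9 had an unadjusted p under 0.05. Rel, Malt1 and Nfkb1 had no overlap between the genotypes, where 20.6% of all genes had none. Rel was at 20.4, 20.4, 40.1 and 22.4 CPM in the WT libraries and 146, 64.2, 42.6 and 64.0 CPM in Yap-cKO libraries, a log2 fold change of 1.64 ± 0.39 (SE, adjusted p = 0.0274) with an interval of 0.77 to 2.51. WT replicate 3 stood above the other WT libraries, close to the lowest Yap-cKO library. Malt1, the protease that cuts A20 and other brakes on the pathway in antigen-stimulated cells, was at 23.2, 33.7, 55.1 and 25.8 CPM in the WT libraries and 149.9, 83.3, 59.7 and 76.6 CPM in Yap-cKO libraries, a log2 fold change of 1.45 ± 0.35 (SE, adjusted p = 0.0286) with an interval of 0.67 to 2.23.

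Tnfaip3 had the largest estimate in CD8+ TILs. It was at 102, 283, 590.0 and 222 CPM in the WT libraries and 2248, 917, 713 and 386 CPM in Yap-cKO libraries, where WT replicate 3 was above Yap-cKO replicate 4. The log2 fold change of Tnfaip3 was 1.84 ± 0.60 (SE, adjusted p = 0.0656). Nfkb1 was at 35.4, 39.1, 61.8 and 41.5 CPM in the WT libraries and 84.3, 64.7, 62.3 and 86.6 CPM in Yap-cKO libraries, just apart, with a log2 fold change of 0.78 ± 0.24 (SE, adjusted p = 0.056). The other 5 genes had estimates between 0.65 for Rela and 1.10 for Nfkb2, at adjusted p from 0.0806 for Nfkbiz to 0.139 for Rela.

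The direction in the TILs depended on the scaling. When libraries were scaled on the summed T-lineage counts in place of TMM, the median of all genes moved from 0.14 to -1.13 in CD4+ TILs and from 0.08 to -1.12 in CD8+ TILs, and none of the 9 genes was called. In CD4+ TILs 8 of the 9 estimates stayed positive, with -0.42 for Rela, 1.35 for Rel and a median of 0.45. In CD8+ TILs 4 of the 9 stayed positive, Tnfaip3 at 0.89, Rel at 0.55, Malt1 at 0.36 and Nfkb2 at 0.20, and the median was -0.12. The members' median was above that of all genes under both scalings. Rescaling moves all genes of a library together, so this order could hardly change. Calls over all genes moved from 193 higher and 946 lower to 17 higher and 3760 lower in CD4+ TILs, and from 428 and 1291 to 6 and 5842 in CD8+ TILs. With WT replicate 4, the only WT library low in Y-linked genes, alone against the 4 Yap-cKO libraries, all 9 estimates were positive in both populations and none was called, with 1.41 for Nfkbia and 1.10 for Nfkb1 in CD4+ TILs and 1.88 for Rel and 1.90 for Malt1 in CD8+ TILs. In that setting, with 1 library in an arm, 0 of 12987 genes were called in CD4+ and 1 of 12868 in CD8+ TILs, so the absence of called members says nothing about them. The part of the melanoma and T-lineage levels in these differences was not tested beyond this rescaling, and that of the endothelial, fibroblast and macrophage markers was not tested.

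The calls were close to the threshold. In CD4+ TILs leaving out any 1 of WT replicates 1, 2 and 4 or Yap-cKO replicates 1, 2 and 4 left 0 members called, and without WT replicate 3 there were 2, Nfkbia and Relb. The log2 fold changes over these leave-one-out fits ran from 1.14 to 1.66 for Nfkbia and from 1.11 to 1.60 for Nfkb1. In CD8+ TILs 0 members were called without any 1 of the same 6 numbers, 2 without Yap-cKO replicate 3 and 5 without WT replicate 3, when Nfkb1, Nfkbia and Tnfaip3 were added. Rel ran from 1.20 to 1.98 and Malt1 from 1.14 to 1.81 there.

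In CD45+ CD4-CD8- cells of the tumor, which are not the cells that Cre was aimed at, 1 of the 9 genes was called, Tnfaip3, where 0.991% of all tested genes were called in either direction. Tnfaip3 was at 227, 283, 343 and 281 CPM in the WT libraries and 792, 539, 651 and 525 CPM in Yap-cKO libraries. Every Yap-cKO library was above every WT library, and the log2 fold change was 1.11 ± 0.18 (SE, adjusted p = 0.0283) with an interval of 0.71 to 1.51. Malt1, at 77.5, 77.4, 90.4 and 89.3 against 188, 116, 171 and 148 CPM, passed on p and stayed under the fold threshold (log2 fold change 0.86 ± 0.17 SE, adjusted p = 0.0418). Rel and Nfkbiz also had no overlap between genotypes, which 11.5% of all genes showed, with log2 fold changes of 1.11 ± 0.30 (SE, adjusted p = 0.103) and 0.66 ± 0.21 (SE, adjusted p = 0.146).

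The other 5 genes had small estimates in these cells, from 0.12 for Nfkbia, with an interval of -0.62 to 0.86, to 0.40 for Relb, and none passed. The median of the 9 was 0.40 against 0.01 over all genes. Tnfaip3 was no longer called without any 1 of WT replicates 1, 2 and 4 and Yap-cKO replicates 1, 2 and 3, at log2 fold changes of 1.00 to 1.23 over the 8 fits. With WT replicate 4 alone it was 1.14, in a fit that called 1 of 12804 genes. Beside this difference the melanoma marker sums above were also apart, B cell markers ran from 948 to 1915 CPM in the WT libraries and 275 to 1002 CPM in Yap-cKO libraries, and macrophage and monocyte markers from 23562 to 33761 and 18839 to 29991 CPM. Their part in the result was not tested.

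In the TDLNs none of the 9 genes was called in any population by edgeR, none had an unadjusted p under 0.05 and DESeq2 called 0. Over all genes 0.0462% were called in CD4+ cells, 0.0158% in CD8+ cells and 0.0596% in CD45+ CD4-CD8- cells. The estimates were positive for 6, 5 and 2 of the 9 genes in the same order. Tnfaip3 in CD4+ cells, at 1944, 1393, 1606 and 1681 CPM in the WT libraries and 1043, 2016, 1556 and 2094 CPM in Yap-cKO libraries, had an interval of -0.53 to 0.56 on the log2 scale, which leaves out a 2-fold difference. Nfkb1 was bounded as closely, at -0.44 to 0.55 in CD4+ and -0.53 to 0.45 in CD8+ cells. Malt1 was not bounded this way in CD8+ cells, with an interval of -1.15 to 1.74. Scaled on the T-lineage sums, the median of all genes was 0.18 in CD4+ cells, and the calls over all genes there went from 4 higher and 2 lower to 0 and 1.

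**Figure D2:**
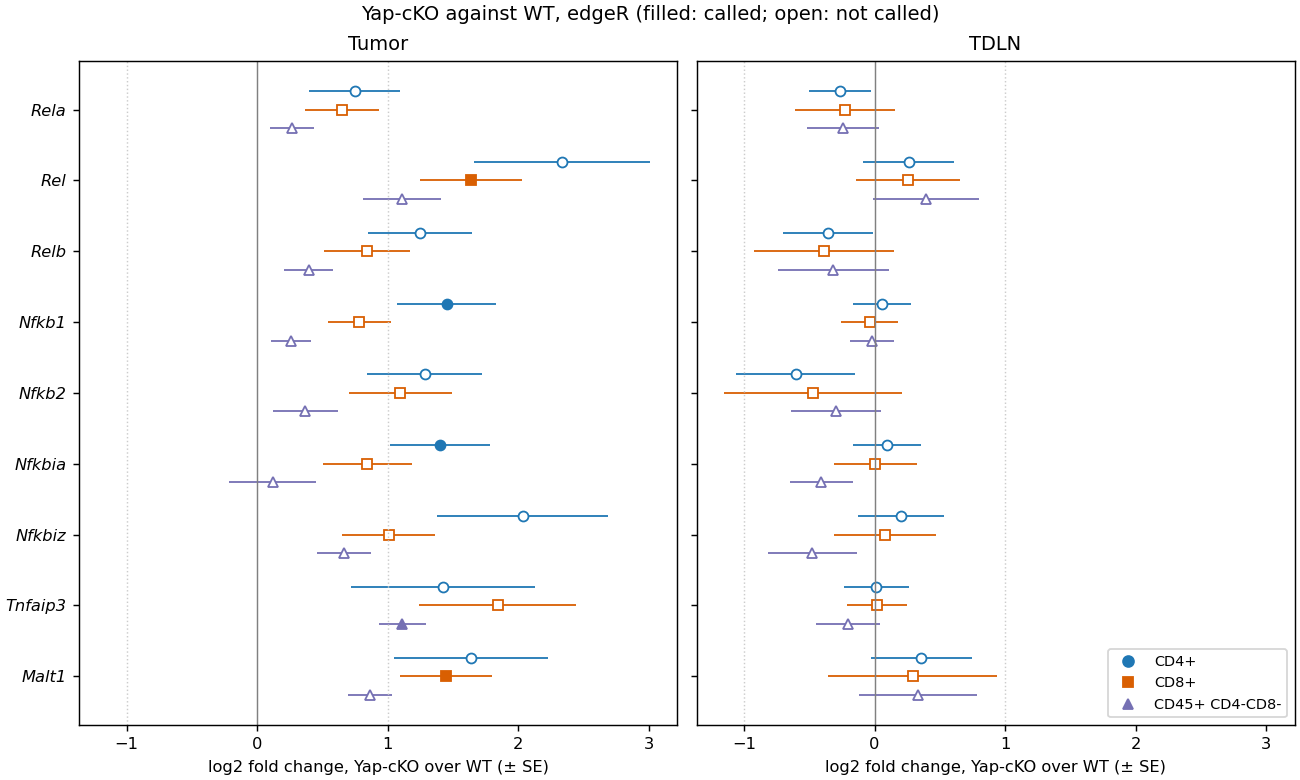
Log2 fold change of Yap-cKO over WT (x axis, ± SE) for each of the 9 genes in tumor (left) and TDLN (right), for CD4+ (circles), CD8+ (squares) and CD45+ CD4-CD8- cells (triangles), with filled symbols where the gene was called. All 27 tumor estimates are above 0 under TMM scaling, whereas under T-lineage scaling 8 of 9 in CD4+ TILs and 4 of 9 in CD8+ TILs are, and the TDLN estimates lie on both sides of 0 with none called.

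Whether the genotype difference itself differed between tumor and TDLN was tested as an interaction in each population. None of the 9 genes was called by edgeR, where 1.36% of all genes were called in CD4+ cells, 0.422% in CD8+ cells and 0% in CD45+ CD4-CD8- cells. All 27 interaction estimates were positive under TMM scaling, with an unadjusted p under 0.05 for 7, 3 and 2 genes, and DESeq2 called 0, 0 and 1. Under T-lineage scaling 8 of the 9 were positive in CD4+ and 5 in CD8+ cells, while calls over all genes went from 31 higher and 174 lower to 6 and 2232 in CD4+ cells and from 0 and 63 to 6 and 3368 in CD8+ cells. The smallest p was that of Tnfaip3 in CD45+ CD4-CD8- cells, with an interaction of 1.30 ± 0.33 (SE) and an adjusted p of 0.231. In CD4+ cells Rel had 2.07 ± 0.81 (adjusted p = 0.228) and Nfkb2 1.88 ± 0.68 (adjusted p = 0.188). The tests of genotype therefore passed in tumors and not in TDLNs for 5 gene and population pairs without a tested difference between the tissues that passed.

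The comparison of tumor with TDLN shares its libraries with the comparison by genotype, and its values are given side by side. In WT CD4+ cells 4 of the 9 genes were lower in the tumor, Rel, Tnfaip3, Relb and Malt1, and none was higher, where 37.3% of all genes were called in either direction. Rel was at 179.9, 70.1, 144 and 156 CPM in TDLN and 22.4, 21.7, 43.1 and 35.2 CPM in tumor libraries (log2 fold change -2.16 ± 0.34 SE, adjusted p = 0.000301). The tissues did not overlap. Tnfaip3 went from 1944, 1393, 1606 and 1681 CPM to 96.8, 619, 663 and 667 CPM, with tumor replicate 1 far below the other 3 (log2 fold change -1.68 ± 0.48 SE, adjusted p = 0.0129). Relb had a log2 fold change of -1.40 ± 0.39 (SE, adjusted p = 0.0115) and Malt1 -1.25 ± 0.40 (SE, adjusted p = 0.0233), the latter lost without TDLN replicate 4 or tumor replicate 1 or 2. Nfkbia, with -0.40 ± 0.33 (SE) and an adjusted p of 0.336, and Nfkbiz, with -0.41 ± 0.38 and 0.407, did not pass.

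In WT CD8+ cells 6 of the 9 genes were lower in the tumor, where 37.7% of all genes were called. The largest was Tnfaip3, from 1849, 1436, 1214 and 1669.8 CPM in TDLN to 102, 283, 590.0 and 222 CPM in tumor libraries (log2 fold change -2.33 ± 0.47 SE, adjusted p = 0.00195). All 4 tumor libraries were below all 4 TDLN libraries, where 41.3% of all genes had no overlap between the tissues. Relb went from 298, 127, 262 and 63.4 CPM to 24.5, 25.3, 53.3 and 62.2 CPM (log2 fold change -2.17 ± 0.50 SE, adjusted p = 0.00445), Rel was lower by 1.75, Rela by 1.72, Nfkb2 by 1.78 and Nfkbia by 1.41 on the log2 scale. TDLN replicate 4 was the lowest of its group for Relb, Rela, Nfkbia and Nfkb2 and the highest for Malt1 and Rel. Nfkb2 was lost without TDLN replicate 1 or 3 or tumor replicate 1 or 2, and Nfkbia without tumor replicate 1. Nfkbiz did not pass, with -0.33 ± 0.28 (SE) and an adjusted p of 0.362.

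In Yap-cKO T cells no member was called lower in the tumor. In CD4+ cells 1 of the 9 genes was called, Nfkb2, higher in the tumor, where 18.5% of all genes were called. It went from 106, 103, 67.7 and 200.1 CPM to 302, 203, 378 and 173 CPM (log2 fold change 1.17 ± 0.37 SE, adjusted p = 0.0478), with the lowest tumor library under the highest TDLN library, and it was lost without TDLN replicate 1, 2 or 3 or tumor replicate 1 or 2. Rel had -0.11 ± 0.66 (SE) in these cells, with an interval of -1.56 to 1.33, and Tnfaip3 -0.31 ± 0.57. In CD8+ cells 0 genes were called by edgeR and by DESeq2, where 15.9% of all genes were called, and 2 had an unadjusted p under 0.05, Rela at -0.82 ± 0.32 and Relb at -0.91 ± 0.38. The interval of Tnfaip3 there was -1.44 to 0.43. The difference between the genotypes is the interaction given above.

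Tissue calls in WT T cells also depended on the scaling. T-lineage marker sums were 8467 to 14915 CPM in WT CD4+ cells of the TDLNs and 7994 to 12812 CPM in WT CD8+ cells, above the tumor sums given earlier, and melanoma markers were at most 17.0 CPM in both TDLN groups of WT T cells. Scaled on the T-lineage sums, the median of all genes moved from -0.025 to 1.54 in WT CD4+ and from -0.021 to 1.66 in WT CD8+ cells. No member was then called in CD4+ cells, where Rel was at -0.80 and Nfkbia at 0.96. In CD8+ cells Nfkbiz was called higher at 1.22 (adjusted p = 0.0334), Nfkbia changed sign to 0.20 and Tnfaip3 was at -0.93. Calls over all genes moved from 3203 higher and 2024 lower to 7790 higher among 7913 calls in WT CD4+ cells, and from 3121 and 2114 to 8482 higher among 8585 calls in WT CD8+ cells. In Yap-cKO mice they moved from 1684 and 823 to 2217 and 455 in CD4+ cells and from 1456 and 668 to 2131 and 202 in CD8+ cells. The members' median lay below that of all genes under both scalings, at -0.91 and 0.54 in CD4+ and -1.72 and -0.13 in CD8+ cells. This order, too, could hardly change, since rescaling moves all genes of a library together.

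In CD45+ CD4-CD8- cells the IkB genes Nfkbiz, the atypical one, and Nfkbia were higher in the tumor in both genotypes, and Rel was lower in both. In WT mice 2 of the 9 genes were higher and 3 lower, where 39.9% of all genes were called, and in Yap-cKO mice 2 were higher and 1 lower, where 40.3% were. Nfkbiz went from 80.6, 95.8, 46.1 and 111 CPM to 298, 213, 425 and 290.2 CPM in WT (log2 fold change 1.84 ± 0.33 SE, adjusted p = 0.00106). In Yap-cKO mice it went from 36.1, 71.1, 45.6 and 86.9 CPM to 471, 537, 473 and 509 CPM (log2 fold change 3.00 ± 0.27 SE, adjusted p = 5.16e-06). The tissues did not overlap in either genotype, where 47.9% of all genes in WT and 51.7% in Yap-cKO mice had no overlap. The spread of the 4 Yap-cKO tumor libraries was small, with an SD of 31.8 CPM.

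Nfkbia went from 554, 436, 356 and 481 CPM to 1612, 608, 1775 and 864 CPM in WT (log2 fold change 1.37 ± 0.36 SE, adjusted p = 0.00927) and from 289, 292, 291 and 503 CPM to 1295, 1255, 1081 and 1786 CPM in Yap-cKO mice (log2 fold change 1.92 ± 0.25 SE, adjusted p = 6.51e-05). Rel went from 386, 1079, 471 and 385 CPM to 109, 118, 194 and 105 CPM in WT (log2 fold change -2.17 ± 0.39 SE, adjusted p = 0.00108) and had -1.45 ± 0.32 (SE, adjusted p = 0.00281) in Yap-cKO mice. Relb and Nfkb2, both of the alternative pathway that supports B cells, were called lower in WT, with -1.35 ± 0.36 and -1.34 ± 0.35 (SE), and had -0.62 ± 0.32 and -0.67 ± 0.29 in Yap-cKO mice, not called. Tnfaip3 in Yap-cKO mice passed on p with 0.82 ± 0.20 (SE, adjusted p = 0.0055), under the fold threshold. None of these calls was lost when 1 library was left out, except that of Relb in WT mice without TDLN replicate 1.

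The cells in this gate differed between the tissues. B cell markers (8 genes, summed) were at 9593 to 11115 CPM in the WT libraries and 9545 to 11740.0 CPM in Yap-cKO TDLN libraries against the tumor sums above. Macrophage and monocyte markers (10 genes) were at 243 to 3767 and 180.5 to 408 CPM in the TDLNs, far below the tumor. Neutrophil markers (7 genes) were at 30.2 to 125 CPM in WT TDLN and 497 to 2347 CPM in WT tumor libraries. The difference in the 9 genes between tissues and the difference in cell makeup cannot be told apart in this gate.

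**Figure D3:**
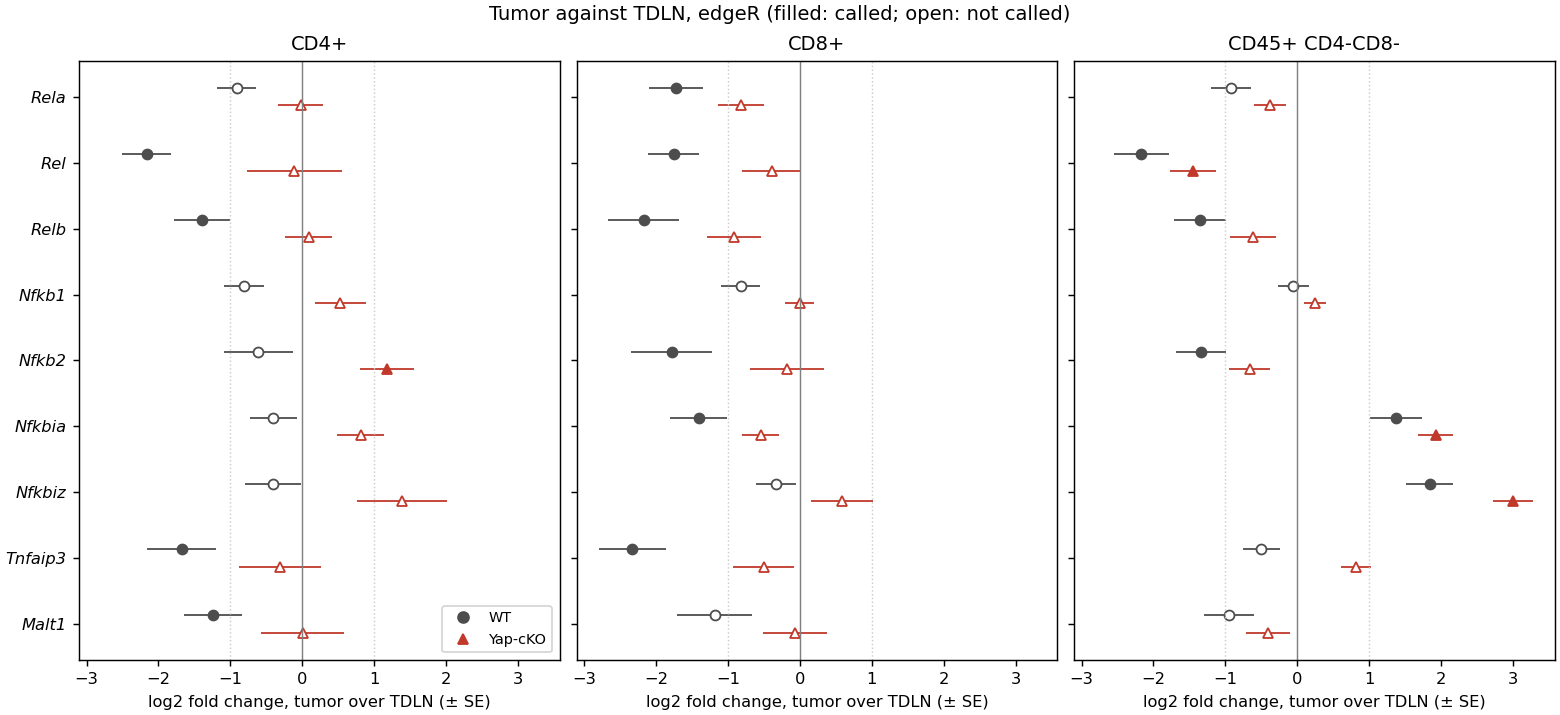
Log2 fold change of tumor over TDLN (x axis, ± SE) for each of the 9 genes in CD4+, CD8+ and CD45+ CD4-CD8- cells (panels), for WT (gray circles) and Yap-cKO mice (red triangles), with filled symbols where the gene was called. WT T cells lie left of 0 for every gene under TMM scaling, though 5 of 9 in CD4+ and 4 of 9 in CD8+ cells lie right of 0 under T-lineage scaling, while Nfkbia and Nfkbiz lie right of 0 and Rel left of 0 in CD45+ CD4-CD8- cells.

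Cell types were compared within each tissue with genotype as a term, and libraries that may come from the same mouse were treated as independent. Between CD4+ and CD8+ TILs 1 of the 9 genes was called, Nfkbia, higher in CD4+ cells, where 2.72% of all genes were called. Its log2 fold change was 1.07 ± 0.26 (SE, adjusted p = 0.0294), it was not called under T-lineage scaling, where calls over all genes went from 254 higher and 160 lower to 122 and 175, and it was lost without any 1 of 7 libraries, WT CD4+ replicate 3, Yap-cKO CD4+ replicates 1 and 2, WT CD8+ replicate 2 and Yap-cKO CD8+ replicates 2, 3 and 4. In the TDLNs edgeR and DESeq2 called 0 of the 9 between CD4+ and CD8+ cells, 2 had an unadjusted p under 0.05, and 6.26% of all genes were called, 499 higher and 369 lower under TMM and 415 and 428 under T-lineage scaling. Nfkbiz came closest there, at 0.92 ± 0.26 (SE, adjusted p = 0.0273).

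Between CD45+ CD4-CD8- cells and the mean of the T cells in the tumor, 4 of the 9 genes were higher in the former, where 35.2% of all genes were called. These were Nfkbiz at 1.93 ± 0.30 (SE, adjusted p = 7.46e-06), Rel at 1.89 ± 0.32 (SE, adjusted p = 1.77e-05), Nfkbia at 1.37 ± 0.24 (SE, adjusted p = 2.73e-05) and Nfkb1 at 1.07 ± 0.19 (SE, adjusted p = 3.3e-05), and only Nfkb1 was lost in a leave-one-out fit, without WT CD45+ CD4-CD8- replicate 2. Tnfaip3 was the only member with a negative estimate, -0.63 ± 0.37 (SE, adjusted p = 0.158). In the TDLNs Rel and Nfkb2 were higher in CD45+ CD4-CD8- cells, at 2.46 ± 0.23 (SE, adjusted p = 1.17e-09) and 1.26 ± 0.33 (SE, adjusted p = 0.0026), and Tnfaip3 was lower, at -2.13 ± 0.16 (SE, adjusted p = 1.25e-11), where 27.4% of all genes were called. In the TDLNs the levels of Rel were 385 to 1079 CPM in WT CD45+ CD4-CD8- cells and 70.1 to 179.9 CPM in WT CD4+ cells, and those of Tnfaip3 were 277 to 547 and 1393 to 1944 CPM. Nfkbia passed on p in the opposite direction to that in the tumor, -0.80 ± 0.18 (SE, adjusted p = 0.000626), under the fold threshold.

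The rest of the pathway was read from 7 lists, which share a few genes with each other. Their counts are under TMM scaling and were not recomputed under T-lineage scaling, which turned the direction of several members. Over all tested genes 8.02% were called by genotype in CD4+ TILs, in either direction. In CD4+ TILs 4 of 27 target genes were called higher in Yap-cKO mice and none lower, Gadd45b (1.92 ± 0.45, log2 ± SE), the costimulatory receptors Tnfrsf9 (1.80 ± 0.34) and Tnfrsf4 (1.62 ± 0.39), and the survival gene Bcl2l1 (1.08 ± 0.30). Of the other IkB proteins 1 of 5 was called, Nfkbid (1.91 ± 0.49), which encodes a nuclear IkB, and of 12 ubiquitin editing and linear ubiquitin genes 1, Tnip3 (1.81 ± 0.50), a partner of A20. None of 9 other CBM and PKC genes, 10 IKK genes, 9 TRAF and IAP adaptors or 6 MALT1 cleavage targets was called. The list medians ran from 0.49 for CBM and PKC genes to 1.03 for target genes, against 0.14 over all genes.

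In CD8+ TILs 12.2% of all tested genes were called by genotype, in either direction. Of 9 CBM and PKC genes 2 were higher, the kinases Prkcb (1.36 ± 0.34) and Prkcq (1.34 ± 0.34, protein kinase C theta of the T cell receptor), and 1 was lower, Card14 (-2.87 ± 0.62), a CARD protein of epithelial cells. Of 9 adaptors 2 were higher, Birc2 (1.22 ± 0.33) and Ripk1 (1.09 ± 0.26), and Cyld, a deubiquitinase that MALT1 cuts, at 180.0 ± 63.1 against 65.0 ± 14.6 CPM (mean ± SD, Yap-cKO against WT), was the 1 called gene of 12 in the ubiquitin list and of 6 in the cleavage list. Of 27 target genes none was higher and 1 was lower, Tnfaip2 (-1.96 ± 0.41). None of 5 IkB proteins and 10 IKK genes was called, and list medians ran from 0.50 to 0.86 against 0.08. In CD45+ CD4-CD8- cells of the tumor edgeR called none of the genes of the 7 lists, where 0.991% of all genes were called. The list medians there were 0.068 to 0.40 against 0.01. None was called in the TDLNs of any population, where 0.0462% (CD4+), 0.0158% (CD8+) and 0.0596% (CD45+ CD4-CD8-) of all genes were.

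Between tumor and TDLN in WT T cells, several upstream genes of the lists were called lower in the tumor, in comparisons that called 37.3% of all genes in CD4+ and 37.7% in CD8+ cells. Prkcq was lower by 2.17 in CD4+ and by 1.94 in CD8+ cells on the log2 scale, and Traf3, a brake on the alternative pathway, by 1.34, 1.68 and 1.72 in CD4+, CD8+ and CD45+ CD4-CD8- cells. The nuclear inhibitor Nfkbid was lower by 1.98 in CD4+ and by 1.38 in CD45+ CD4-CD8- cells, and went from 191 ± 92.4 to 33.5 ± 22.2 CPM (mean ± SD) in CD8+ cells. Ikbke differed in direction, with -2.20 ± 0.31 in CD4+, -2.40 ± 0.35 in CD8+ and 1.66 ± 0.34 in CD45+ CD4-CD8- cells. Of the CBM and PKC list 2 were higher and 5 lower of 9 in each of WT CD4+ and CD8+ cells, of the IKK list 0 higher and 3 lower of 10, and of the adaptors 0 higher and 5 lower of 9 in each. The IkB list had 0 higher and 1 lower of 5 in CD4+ and 0 and 2 in CD8+ cells, the ubiquitin list 0 and 1 of 12 and 1 and 3, and the cleavage list 0 and 2 of 6 and 0 and 3. In WT CD45+ CD4-CD8- cells the calls were 0 higher and 2 lower for the IkB list, 3 and 2 for CBM and PKC genes, 1 and 0 for IKK genes, 0 and 4 for adaptors, 1 and 2 for the ubiquitin list and 0 and 0 for the cleavage list.

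Target genes were set beside the same comparisons. Calls were 11 higher and 1 lower of 27 tested in WT CD4+ cells, 18 higher and 0 lower of 26 tested in Yap-cKO CD4+ cells, 12 higher and 6 lower of 26 tested in WT CD8+ cells and 13 higher and 1 lower of 26 tested in Yap-cKO CD8+ cells. In CD45+ CD4-CD8- cells they were 17 higher and 3 lower of 26 tested in WT and 19 higher and 2 lower of 26 tested in Yap-cKO mice, with a median of 1.95 and 3.37 on the log2 scale. Over all genes higher calls also outnumbered lower ones, with 3203 and 2024 of 14009 in WT CD4+, 1684 and 823 of 13565 in Yap-cKO CD4+, 3121 and 2114 of 13894 in WT CD8+, 1456 and 668 of 13347 in Yap-cKO CD8+, 3045 and 2505 of 13898 in WT CD45+ CD4-CD8- and 3000 and 2538 of 13734 in Yap-cKO CD45+ CD4-CD8- cells. Among those with the smallest p in WT CD4+ cells, the chemokine Ccl5 was 5.62 ± 0.58 and Ier3 5.67 ± 0.40 (log2 ± SE). In WT CD8+ cells Il1b, a cytokine best known from myeloid cells, was 5.31 ± 0.69, where macrophage and monocyte markers were at 324 to 673 CPM in the tumor and 20.2 to 43.7 CPM in the TDLNs. In WT CD45+ CD4-CD8- cells Tnf was 3.96 ± 0.51 and Bcl2l1 2.62 ± 0.34. The part of other cells in the T cell values was not tested.

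Across the libraries of 1 group in the TDLNs the members did not move as a block. The GC index was set beside each of them. Over the 24 TDLN libraries, as deviations from their group means, the index had a correlation of -0.95 with Malt1, -0.89 with Rel, 0.86 with Rela and 0.71 with Relb. These points share depth, library and normalization. The transcripts of Rel and Malt1 hold 42.5% and 43.8% GC, and those of Relb, Rela and Nfkb2 60.9%, 59.4% and 59.2%, the poorest and richest of the 9. Among genes with at least 5 CPM these are GC percentiles 8.16 and 12.9, and 97.9, 95.1 and 94.5. Such genes lie at the GC extremes from which the index is built, so the signs of their correlations partly follow from its definition. The correlation of Nfkb2 with the index was 0.53. Nfkb1, at 51.9% GC, had -0.13, Nfkbia, at 54.7%, 0.62, Nfkbiz, at 49.4%, -0.52 and Tnfaip3, at 49.2%, -0.42.

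Pairs of members differed between the tissues. Rela and Malt1 had a correlation of -0.89 in the TDLNs and 0.0039 in the tumors, and Rel and Rela -0.62 and 0.060. Rela and Relb had 0.94 and 0.88, and Rel and Malt1 0.74 and 0.93. All 36 pairs of members were positive in the tumors. In the tumors the index had -0.65 with Malt1, -0.57 with Rel, 0.72 with Rela and 0.015 with Nfkbia. In WT CD8+ cells of the TDLNs, for example, replicate 4 had the lowest Rela, 178 CPM against 305 to 455 CPM, and the highest Malt1, 189 CPM against 26.1 to 62.4 CPM. With an offset for each library's trend over GC, 5 members were called in CD4+ TILs, 4 in CD8+ TILs and 1 in CD45+ CD4-CD8- cells of the tumor, where 1974 of 14195, 1809 of 14113 and 137 of 13618 genes were called. The ranges of the index overlapped between WT and Yap-cKO libraries in each population and tissue. In CD4+ TILs they did so only through Yap-cKO replicate 3, at 2.22. Yap-cKO replicates 1, 2 and 4 were at -0.46, -0.50 and -0.56, below the WT range of -0.16 to 0.78. In CD8+ TILs the medians were -0.051 (WT) and -0.60 (Yap-cKO). With GC offsets the log2 fold changes there were 1.29 for Rel and 1.17 for Malt1, below those of the main fit. The part of the index in the genotype differences was not tested beyond these offsets.

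**Figure D4:**
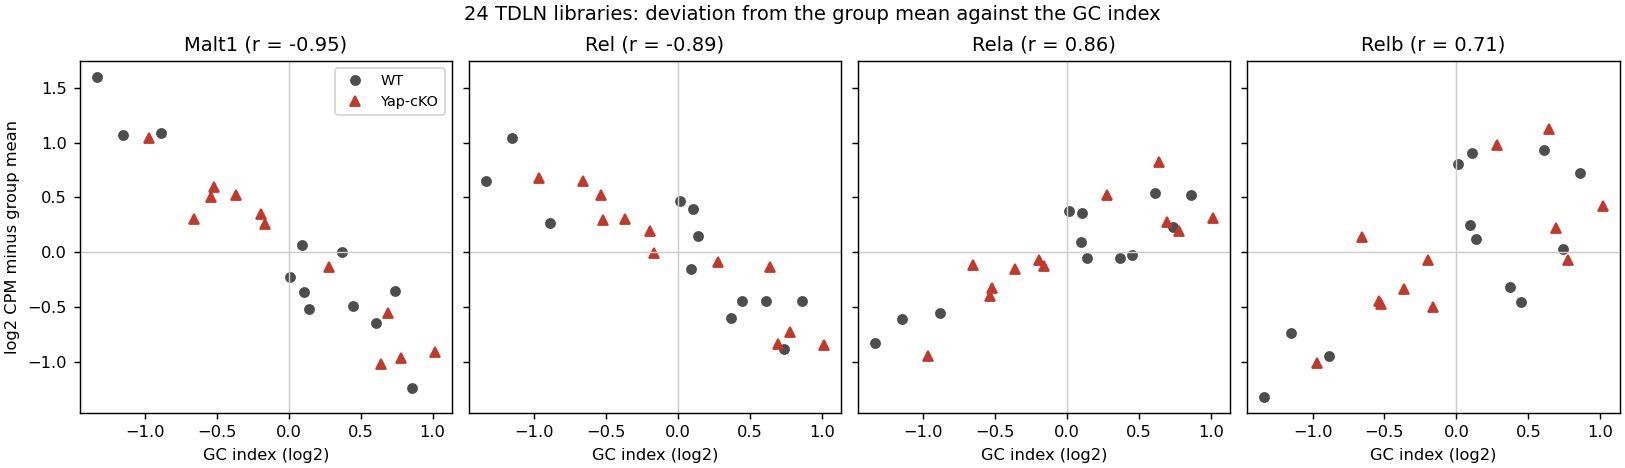
Deviation of Malt1, Rel, Rela and Relb from the group mean (y axis, log2 CPM) against the GC index as deviation from the group mean (x axis, log2) in the 24 TDLN libraries, gray circles WT and red triangles Yap-cKO. Malt1 and Rel fall and Rela and Relb rise along the index, with r of -0.95, -0.89, 0.86 and 0.71.

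The genes whose pattern over the 12 group means was most like each member, among 10634 genes with a mean of at least 5 CPM, were named by the highest Pearson r of log2 CPM. For the subunits these were Rnf114 (0.98) and Smarcd2 (0.98) for Rela, Trim25 (0.98) for Rel, Tmem39b (0.98) and Anapc2 (0.98) for Relb, Pim1 (0.96) and Hcls1 (0.96) for Nfkb1, and Rab4b (0.95) and Map4k1 (0.95) for Nfkb2. For the regulators they were Rab11fip1 (0.97) and Matk (0.94) for Nfkbia, Mmp25 (0.97) and Nlrx1 (0.97) for Nfkbiz, 1190002N15Rik (0.98) and Itgal (0.97) for Tnfaip3, and Fam126a (0.98) and Pik3cg (0.96) for Malt1. No member was among the 2 genes most like another member.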

How the data were processed

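The 48 libraries were made from sorted cells with a SMART-Seq v4 low-input kit and sequenced as paired reads. Per the labels and methods, the authors trimmed reads with Trimmomatic, checked them with FastQC and quantified a mouse GRCm38 transcriptome with Salmon 0.9.1. For each library the authors deposited 1 table of transcripts with expected counts, TPM and effective lengths, and no file mixed samples. Effective length is a score the authors deposited per transcript in bases.

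Of 112092 transcripts, 111787 matched GENCODE M21 and were summed to 34932 genes, and 0.0488% to 0.18% of a library's counts were left out. The expected counts were rounded. Groups came from the labels. Main tests were edgeR 4.0.16 quasi-likelihood F tests in R 4.3.3 with TMM, on the libraries of each comparison, after a filter of at least 10 counts in at least 4 libraries, with Benjamini-Hochberg adjustment over all tested genes. SEs are the fold change over the root of F, and 95% intervals use the t quantile of the fit. Scripts were tested on simulated data, drawn for the fits with a single fixed spread for all genes and no GC trend. That test checks the code and not the error rates in these libraries. Alternatives were DESeq2 1.42.0, no filter, length offsets, all 48 libraries in 1 fit, a replicate block, T-lineage scaling, WT replicate 4 alone, adjusted p alone, each library left out in turn and, added after seeing the data, GC offsets. Strand was not used, so antisense reads could not be told apart.

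The 9 members, the 7 pathway lists and the marker lists were chosen with earlier results of these data known. Named genes outside the 9 are, in tumor genotype and WT tissue comparisons, at most 4 called genes of a list with the smallest p, and for each member the 2 genes with the highest r over the 12 groups, except that some named by this rule are not reported here. No 2 libraries of a group were identical (72 pairs). Where libraries of a group were not stated to come from separate mice, p-values measure only the spread between these libraries, which may be technical.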

Additional observations from a re-analysis of the deposited data

Results flagged for a closer look

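In groups of 4 libraries, the gap of the highest or lowest library to the next was tested against the group's range (Dixon's 95% limit) for the 9 genes in 12 groups, and 11 of 108 were past it, where chance gives about 1 in 20. In the TDLNs these were Nfkb1 in Yap-cKO CD8+ replicate 4 at 92.6 CPM against 71.9 to 74.0, and Nfkb2 in the same library at 469.27 CPM against 65.4 to 128.3. Rel was at 1079.1 CPM in WT CD45+ CD4-CD8- replicate 2 against 385.0 to 470.7, and Rela at 258.3 CPM in Yap-cKO CD4+ replicate 1 against 189.9 to 197.6. Nfkbia was at 503.4 CPM in Yap-cKO CD45+ CD4-CD8- replicate 4 against 288.8 to 291.8. Malt1 was at 176.1 CPM in WT CD4+ replicate 4 against 57.7 to 70.7, and at 59.2 CPM in Yap-cKO CD4+ replicate 1 against 133.7 to 141.8.

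In the tumors Rel was at 40.1 CPM in WT CD8+ replicate 3 against 20.4 to 22.4, and at 193.9 CPM in WT CD45+ CD4-CD8- replicate 3 against 105.1 to 117.9. Nfkbia was at 1697.4 CPM in Yap-cKO CD4+ replicate 1 against 943.5 to 1038.1, and Tnfaip3 was at 96.8 CPM in WT CD4+ replicate 1 against 619.5 to 666.9. Leaving out WT CD8+ tumor replicate 3 raised the members called there from 2 to 5, and Rel was called with and without it. No explanation of these values was tested.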

How the results depend on the processing

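Counts are members called. Of the values of single members under all alternatives, 3357 kept their side of the threshold, among them estimates that were not called and changed sign, 95 newly passed, 92 no longer passed and 2 called values reversed, both under T-lineage scaling in WT CD8+ cells between tissues (Nfkbiz 1.22, Nfkbia 0.20). Of the counts under all alternatives, 318 stayed within 1.5 times and 76 moved.

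By genotype in CD4+ TILs the count of 2 became 7 with DESeq2, 6 with all 48 libraries, 5 with GC offsets, 4 without the filter, and 0 under T-lineage scaling, WT replicate 4 alone, the replicate block and GC offsets with the block, and ran from 0 to 5 over the leave-one-out fits. Calls over all genes went from 1139 to 2128, 2395, 1974 and 1723 in the first 4, and to 3777, 0, 767 and 672 in the last 4. In CD8+ TILs the count of 2 became 4 with DESeq2 and with GC offsets and 0 under the same 4 alternatives, and ran from 0 to 5, while calls over all genes went from 1719 to 2572, 1809, 5848, 1, 1 and 1. In CD45+ CD4-CD8- cells of the tumor the count of 1 became 2 with DESeq2 and on adjusted p alone, and 0 with all 48 libraries, WT replicate 4 alone and both blocked fits, and ran from 0 to 1, while calls over all genes went from 135 to 527, 150, 20, 1, 1 and 1.

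Between tissues the count under T-lineage scaling became 0 from 4 in WT CD4+, 1 from 6 in WT CD8+ and 2 from 1 in Yap-cKO CD4+ cells, where it was 0 with length offsets, GC offsets and both blocked fits. Leave-one-out counts ran from 3 to 4, 4 to 6 and 0 to 2 in these, and from 0 to 2 in Yap-cKO CD8+ cells. For the interactions, all 48 libraries gave 1 in CD4+ cells, DESeq2 1 in CD45+ CD4-CD8- cells, and leave-one-out 0 to 2 in CD4+ cells. Between CD4+ and CD8+ TILs the count of 1 became 2 with DESeq2, all 48 libraries and the block and 0 with GC offsets and T-lineage scaling, with 0 to 1 on leave-one-out, and in the TDLNs adjusted p alone gave 1, with 0 to 1. Between CD45+ CD4-CD8- and T cells adjusted p alone gave 8 in the tumor and 7 in the TDLNs, with 3 to 6 and 3 to 4 on leave-one-out. The cause of these shifts was not tested.

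The same replicate number was checked as a pairing by the correlation of deviations from the group means. No genotype (-0.78 to 0.64) or tissue comparison (-0.47 to 0.57) had every pair over 0.1, and 4 of 12 cell type comparisons had. Libraries correlating best with their own number were 3 of 48, 12 of 48 and 56 of 96. Mean r between CD4+ and CD8+ cells ran from 0.42 to 0.68, and per the paper TILs of both kinds were sorted from each tumor. The number may therefore mark a pairing in the cell type comparisons, most clearly in those 4. No comparison had every pair over 0.1 for all of its group pairs, and the fits without the block were kept. Libraries that may be paired were thus treated as independent in the cell type fits. With the replicate block the count also moved from 4 to 6 between CD45+ CD4-CD8- and T cells in the tumor and from 3 to 4 in the TDLNs, and it moved in no other comparison than those given. The GC offsets were chosen after seeing the data.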
